A study of Mus with 4 samples.

Results

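The replication-dependent histone genes of the mouse cochlea were described in 4 RNA sequencing libraries. They were taken as every gene whose symbol follows the systematic names of the linker histones H1f1 to H1f5 or of the clustered H2ac, H2bc, H3c and H4c genes. The rule found 58 genes among 21230 listed: 5 for H1, 13 for H2A, 16 for H2B, 11 for H3 and 13 for H4. The 2 RESTARTv3 libraries and the 2 untreated libraries were all made from cochlear tissue of mice bearing the C>T change at Otof c.1315. It puts an early stop codon into otoferlin, a protein that inner hair cells need to release transmitter. The RESTARTv3 mice had received RESTART v3 in the AAVie vector through the inner ear: a guide RNA that directs pseudouridine to the stop codon, an isoform of the pseudouridine synthase DKC1, and a near-cognate tRNA for read-through. The untreated mice had received no RESTART, and no injected control is among these libraries, so that effects of the injection, of the vector and of RESTART v3 itself cannot be told apart. The labels give neither the age of the mice nor the time since injection, and they do not say whether 2 libraries of a group came from separate animals. The study calls its sequencing replicates independent. If they were not, the p-values measure only the spread between these libraries, which may be technical.

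Core histones H2A, H2B, H3 and H4 wrap the DNA into nucleosomes, and the linker histone H1 binds where the DNA enters and leaves. Their main genes lie together in clusters in many near-identical copies, have no introns and are transcribed mostly in S phase, when new chromatin is built. Their mRNAs end in a stem-loop, bound by SLBP and cut with the help of the U7 small nuclear RNA, in place of a poly(A) tail. Cells that have left the cycle make little of them and rely on replication-independent variants such as H3.3 and H2A.Z, from genes with introns and polyadenylated mRNAs. A few clustered genes also give polyadenylated mRNAs in differentiated tissue.

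These mRNAs were abundant in every library. The question was whether their levels or their balance differed after RESTART v3. No histone gene passed the test for a difference between RESTARTv3 and untreated libraries, and 2 libraries set most of the spread: RESTARTv3 replicate 2 was low for all 58 genes, and one untreated library, called A, had a histone make-up of its own. RESTARTv3 replicate 1 and the other untreated library, B, were close for most genes. The labels call the material polyA RNA, whereas the methods describe depletion of ribosomal RNA from total RNA, a choice that matters for mRNAs without a poly(A) tail.

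Levels are given as RPKM, that is reads divided by the span of the gene and by the total of the library. The library totals were 71144247 and 61040077 reads in RESTARTv3 replicates 1 and 2, and 39650172 and 56739609 reads in untreated A and B. The listed genes held 57.9% and 28.6% of these totals in the RESTARTv3 libraries, against 52.9% and 60.4% in untreated A and B, and replicate 2 lay low for most genes. Values were therefore also divided by a median-of-ratios factor per library and are then called scaled RPKM. Reads were recovered from the RPKM values, for some genes through a length chosen so that the reads were whole. The 58 genes had 147751 and 55259 reads in the RESTARTv3 libraries, and 115269 and 126109 reads in untreated A and B. That was 0.359% and 0.316% of the reads in listed genes in RESTARTv3, against 0.550% and 0.368% in untreated libraries. The 95% Wilson intervals, which cover counting error only, were 0.357% to 0.361% and 0.314% to 0.319% in RESTARTv3, and 0.547% to 0.553% and 0.366% to 0.370% in untreated A and B. Since the tissue is a mixture of cell types, fewer cells of a type and less RNA per cell cannot be told apart.

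Of 63 genes with such names in the GRCm38.p6 annotation, an older assembly used here for names and lengths, 56 were in the table. The 7 others, H2ac14, H2ac18, H2ac19, H2ac23, H2ac24, H2bc23 and H3c14, are not analysed here, and H2bc27 and H4c16 of the table had no entry. In the annotation, 49 members lay in the largest histone cluster and 7 in a second one: H2ac20, H2ac21, H2bc18, H2bc21, H3c13, H3c15 and H4c14. Between members with almost the same sequence, reads can be lost or assigned to a copy they did not come from, so that sums over a histone type are firmer than the value of a single copy. The span used for RPKM was 375 bases in the shortest member, H4c3, and under 1000 bases in 53 members. For H2bc21, H2bc4, H2bc22 and H2bc6 it was 2623, 8624, 14080 and 37439 bases, which lowers their RPKM against that of the compact genes.

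**Figure D1:**
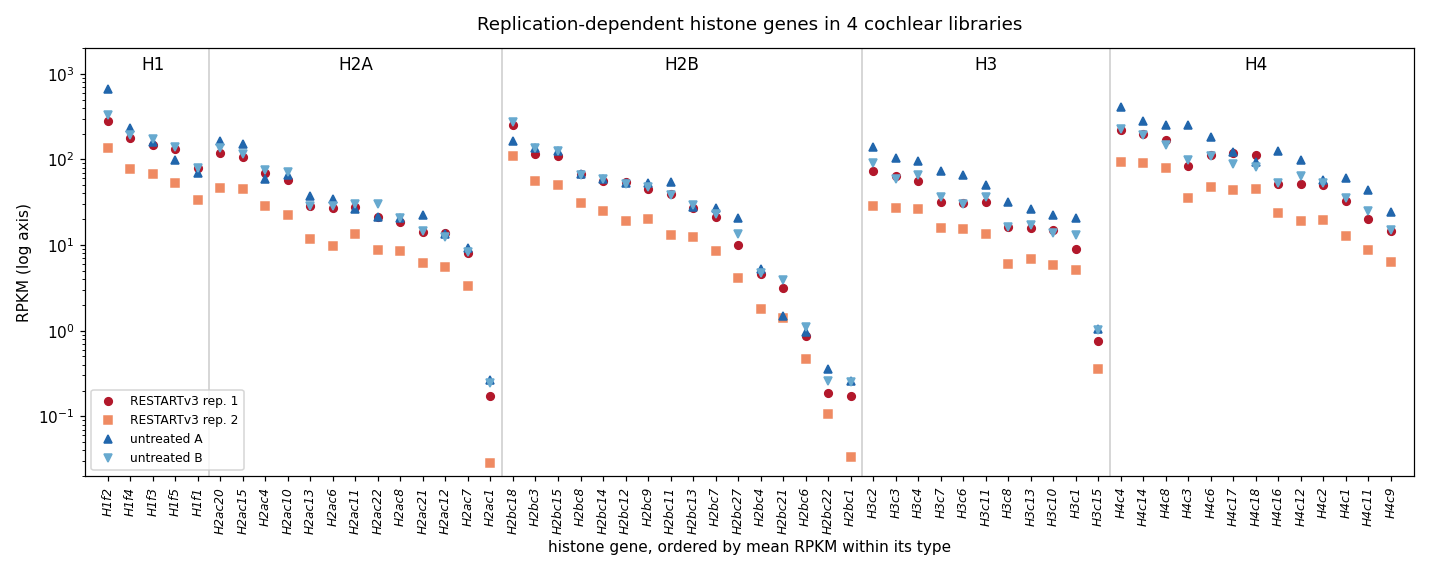
RPKM (log axis) of the 58 replication-dependent histone genes, ordered by mean level within each histone type, with 1 point for each of the 2 RESTARTv3 and 2 untreated libraries. RESTARTv3 replicate 2 was the lowest library for all 58 genes, and untreated A was the highest for 42 of them, among them all 11 H3 genes.

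The linker histones were all well expressed, with mean levels from 65.1 to 353 RPKM. H1f2 was the most abundant of all 58 genes, with 282 and 137 RPKM in RESTARTv3 libraries, against 662 and 330 RPKM in untreated A and B. H1f4 had 178 and 76.8 RPKM in RESTARTv3, against 231 and 195 RPKM in untreated libraries, and H1f3 had 147 and 68.4 RPKM in RESTARTv3, against 159 and 171 RPKM in untreated libraries. For these 3 genes both RESTARTv3 values lay below both untreated values, as for 34.9% of all tested genes, but replicate 1 was nearer to untreated B than to replicate 2. H1f5 had 134 and 53.4 RPKM in RESTARTv3 and 99.4 and 141 RPKM in untreated libraries. H1f1 had 78.8 and 33.4 RPKM in RESTARTv3 and 69.6 and 78.7 RPKM in untreated libraries. For H1f5 and H1f1 the groups overlapped. H1f2, which can also be polyadenylated, took 34.3% and 37.1% of the summed H1 level in RESTARTv3 libraries, against 54.2% in untreated A and 36.0% in untreated B. H1f2 was 2.10 and 2.57 times as high as H1f5 in RESTARTv3 libraries, against 6.66 times in untreated A and 2.34 times in untreated B, so that untreated A stood apart from the other 3 libraries.

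Among the H2A genes, H2ac20 of the smaller cluster and H2ac15 of the large one led. H2ac20 had 120 and 46.1 RPKM in RESTARTv3, against 162 and 136 RPKM in untreated A and B. H2ac15 had 106 and 45.1 RPKM in RESTARTv3, against 153 and 115 RPKM in untreated libraries. Both genes had their RESTARTv3 values below their untreated values, as did 34.9% of all tested genes. H2ac10 had 57.0 and 22.7 RPKM in RESTARTv3, against 66.1 and 70.6 RPKM in untreated libraries, without overlap. H2ac4 had 70.2 and 28.2 RPKM in RESTARTv3 and 59.2 and 74.3 RPKM in untreated libraries, and H2ac13 had 29.0 and 11.7 RPKM in RESTARTv3 and 37.0 and 28.5 RPKM in untreated libraries. In these last genes replicate 1 lay within the untreated range. The median H2A level was 26.8 and 9.86 RPKM in RESTARTv3, and 26.6 and 28.7 RPKM in untreated A and B. H2ac1, a histone known from the testis, was near the floor with 7 and 1 reads in RESTARTv3, and 6 and 8 reads in untreated libraries.

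H2B was led by H2bc18, and this gene went the other way in untreated A. H2bc18 had 254 and 109 RPKM in RESTARTv3, and 165 and 274 RPKM in untreated A and B, so that untreated A lay between the RESTARTv3 libraries. H2bc18 made up 31.4% and 31.0% of the summed H2B level in RESTARTv3, against 20.7% in untreated A and 31.4% in untreated B. H2bc3 had 116 and 55.5 RPKM in RESTARTv3, against 138 and 136 RPKM in untreated libraries. H2bc15 had 110 and 50.8 RPKM in RESTARTv3, against 125 and 125 RPKM in untreated libraries. In both genes the RESTARTv3 libraries lay below the untreated ones, as in 34.9% of all tested genes. The untreated libraries were close to each other. H2bc8 had 68.5 and 31.2 RPKM in RESTARTv3 and 68.3 and 64.9 RPKM in untreated libraries, which overlapped. H2bc14 had 56.7 and 25.3 RPKM in RESTARTv3, against 59.5 and 58.7 RPKM in untreated libraries.

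The low end of H2B held the long or polyadenylated genes and the testis gene. H2bc21, a gene that differentiated cells express as a polyadenylated mRNA, had 3.15 and 1.41 RPKM in RESTARTv3 and 1.5 and 3.86 RPKM in untreated A and B, from 587 and 226 reads in RESTARTv3 and 156 and 574 reads in untreated libraries. Its level in untreated A was near that in replicate 2, and the groups overlapped. H2bc6 and H2bc4 looked low in RPKM because of their long span: H2bc6 had 2279 and 1055 reads in RESTARTv3 and 1414 and 2338 reads in untreated libraries. H2bc6 shares its annotated span with Gm33387, and H2ac1 and H2bc1 overlap Gm33516. H2bc1, known from the testis, had 6 and 1 reads in RESTARTv3, and 5 and 7 reads in untreated libraries. H2bc27 had 10.1 and 4.15 RPKM in RESTARTv3, against 20.6 and 13.6 RPKM in untreated libraries, without overlap. RESTARTv3 values were likewise below the untreated ones in 34.9% of all tested genes.

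All H3 genes were highest in untreated A. The H3c genes encode H3.1 and H3.2, the H3 forms that are built in during replication. H3c2 had 72.3 and 28.6 RPKM in RESTARTv3, against 138 and 90.1 RPKM in untreated A and B. H3c4 had 56.1 and 26.4 RPKM in RESTARTv3, against 95.8 and 65.8 RPKM in untreated libraries. H3c7 had 31.5 and 15.7 RPKM in RESTARTv3, against 72.5 and 36.2 RPKM in untreated libraries. In these 3 genes both RESTARTv3 values lay below both untreated values, as in 34.9% of all tested genes. Untreated B lay nearer to replicate 1 than to untreated A. H3c3 had 63.4 and 27.1 RPKM in RESTARTv3 and 103 and 59.8 RPKM in untreated libraries. H3c6 had 30.8 and 15.6 RPKM in RESTARTv3 and 66.4 and 29.9 RPKM in untreated libraries. Here replicate 1 lay above untreated B. H3c15 was scarce, with 47 and 19 reads in RESTARTv3, and 36 and 51 reads in untreated libraries.

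H4 was the most abundant type by summed level. Its genes encode the same or nearly the same protein. H4c4 had 221 and 92.6 RPKM in RESTARTv3, against 414 and 229 RPKM in untreated A and B. H4c3 had 84.7 and 35.9 RPKM in RESTARTv3, against 255 and 98.9 RPKM in untreated libraries. H4c12 had 51.0 and 18.9 RPKM in RESTARTv3, against 97.2 and 63.9 RPKM in untreated libraries. These genes had both RESTARTv3 values below both untreated values, as did 34.9% of all tested genes, and untreated A was the highest library in each. H4c14 had 200 and 91.6 RPKM in RESTARTv3 and 278 and 195 RPKM in untreated libraries. H4c8 had 169 and 80.0 RPKM in RESTARTv3 and 255 and 147 RPKM in untreated libraries. H4c6 had 114 and 47.5 RPKM in RESTARTv3 and 181 and 111 RPKM in untreated libraries. In these 3 genes replicate 1 lay between untreated B and untreated A. H4c11 had 20.1 and 8.75 RPKM in RESTARTv3, against 44.4 and 25.0 RPKM in untreated libraries. H4c18 had 113 and 45.1 RPKM in RESTARTv3 and 93.2 and 81.7 RPKM in untreated libraries, so that here replicate 1 was the highest library. H4c3 took 6.83% and 6.81% of the H4 level in RESTARTv3, against 12.7% in untreated A and 8.28% in untreated B.

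Summed over all members, the histone level was 3728 and 1609 RPKM in RESTARTv3 libraries, against 5281 and 3933 RPKM in untreated A and B. The means were 2668 ± 1498 RPKM in RESTARTv3 and 4607 ± 953 RPKM in untreated libraries (SD, n = 2 each), a ratio of 0.579, with a spread between replicates of the same order as the difference. After scaling the sums were 2884 and 2539 in RESTARTv3, against 5694 and 2988 in untreated A and B, a ratio of 0.625. Scaling brought RESTARTv3 replicates 1 and 2 and untreated B together and left untreated A apart. Against untreated B alone the ratio of scaled sums was 0.908. H4 summed to 1240 and 526 RPKM in RESTARTv3 and 2006 and 1195 RPKM in untreated libraries, and H1 to 820 and 369 RPKM in RESTARTv3 and 1221 and 916 RPKM in untreated libraries. H3, the lowest type in 3 libraries and level with H2A in untreated A, summed to 343 and 151 RPKM in RESTARTv3 and 629 and 380 RPKM in untreated libraries.

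The share of each type within a library does not depend on library scale. H4 made up 33.3% and 32.7% of the histone level in RESTARTv3, and 38.0% and 30.4% in untreated A and B. H2B made up 21.8% and 21.9% in RESTARTv3, and 15.1% and 22.2% in untreated A and B. H3 made up 9.20% and 9.38% in RESTARTv3, and 11.9% and 9.65% in untreated A and B. The RESTARTv3 libraries were alike and close to untreated B, and untreated A held more H3 and H4 and less H2B. The share of H1 was even, with 22.0% and 22.9% in RESTARTv3, and 23.1% and 23.3% in untreated libraries. H2A took 13.8% and 13% in RESTARTv3, and 11.9% and 14.5% in untreated libraries. The mean share of H2B was 21.9 ± 0.120% in RESTARTv3 and 18.7 ± 4.98% in untreated libraries, and that of H4 was 33.0 ± 0.389% in RESTARTv3 and 34.2 ± 5.38% in untreated libraries (SD, n = 2 each), so that neither difference exceeded the spread of the untreated pair. The ratio of H4 to H2B was 1.53 and 1.49 in RESTARTv3, and 2.51 and 1.37 in untreated A and B. The ratio of H3 to H2A was 0.668 and 0.720 in RESTARTv3, and 1.0 and 0.666 in untreated A and B.

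**Figure D2:**
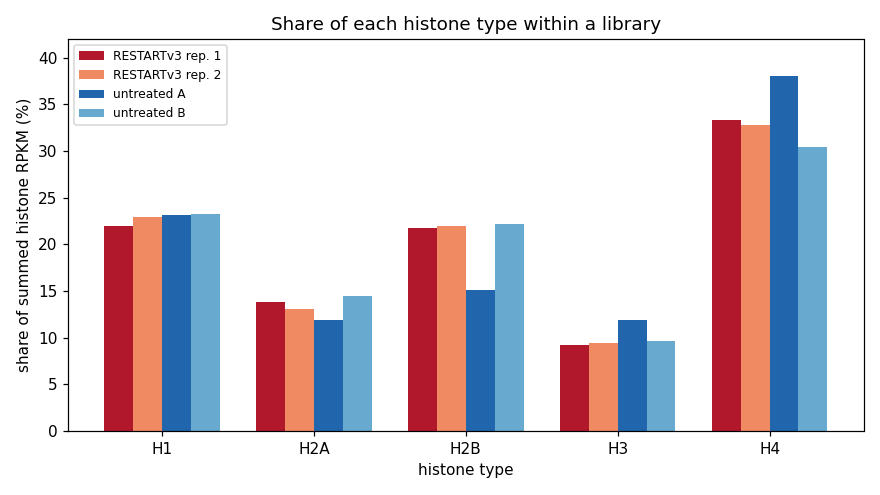
Share of each histone type in the summed RPKM of all 58 genes, in percent, with 1 bar per library. In untreated A the share of H2B was 15.1%, against 21.8% to 22.2% in the other 3 libraries, and the share of H4 was 38.0%.

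The order of the genes within the family was much the same in all libraries. Across the 58 genes, Pearson's r of log2 RPKM was 0.993 to 0.997 between the 3 libraries other than untreated A, and 0.976 to 0.980 between untreated A and each of these. Spearman's rho was 0.991 to 0.993 and 0.958 to 0.959 for the same pairs of libraries. These are descriptions across genes, which are not independent replicates and which share each library's depth.

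H2A and H2B genes often lie side by side and are then transcribed away from each other. In 11 pairs of neighbours in the annotation, whose strands were not compared, the RPKM ratio of the H2A to the H2B gene differed by orders of magnitude. The highest ratios belonged to H2B genes with a long span, which lowers their RPKM: 14080 bases in H2bc22, 2623 in H2bc21 and 8624 in H2bc4. In reads of RESTARTv3 replicate 1, H2ac22 had 719 and H2bc22 had 188. The ratio was steady between libraries for some pairs. H2ac12 reached 0.252 and 0.289 of the level of H2bc12 in RESTARTv3, against 0.252 and 0.240 in untreated A and B. H2ac7 reached 0.382 and 0.388 of H2bc7 in RESTARTv3, against 0.342 and 0.363 in untreated libraries. H2ac8 reached 0.271 and 0.275 of H2bc8 in RESTARTv3, against 0.307 and 0.315 in untreated libraries. Other pairs did not keep their ratio. In one of them H2ac20 was 38.1 and 32.6 times as high as H2bc21 in RESTARTv3, against 108 times in untreated A and 35.4 times in untreated B. H2ac22 was 113 and 81.2 times as high as H2bc22 in RESTARTv3, against 60.2 and 116 times in untreated A and B. H2ac11 reached 0.704 and 1.05 of H2bc11 in RESTARTv3, against 0.487 and 0.794 in untreated A and B. In these 3 pairs untreated A lay at one end of the range. Over both clusters the values were alike: the 45 tested members of the large cluster had a median log2 change of -0.86, and the 6 of the smaller one -0.83.

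The comparison of RESTARTv3 with untreated libraries was tested with limma on log2(RPKM + 0.5), a scale that understates the change of low genes, for the 5076 genes that averaged 1 RPKM or more. These included 53 of the 58 members. H2ac1, H2bc1, H2bc6, H2bc22 and H3c15 were below the minimum. Of the 53, 0 passed an adjusted p of 0.05 in limma, with 0% of all tested genes called, and 0 had an unadjusted p under 0.05, a limit that 1.3% of all tested genes passed with a lower level. The adjusted p in limma was 0.998 for every member. With a constant variance prior in limma 4 members had an unadjusted p under 0.05, as did 4.29% of all tested genes, and 0 were called. The smallest p that an exact permutation test allows with 2 libraries a group is 0.333, and none was run. A test of the recovered reads with limma voom, which took 56 members, also called 0, with 0% of 18458 genes called. There again 0 members had an unadjusted p under 0.05.

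The members' values nevertheless lay mostly on one side. The median log2 change was -0.87 over the 53 tested members and -0.41 over all tested genes, and 50 of the 53 were below the median of all genes. After scaling, which shifted the median of all tested genes by 0.21, the members' median was -0.60 and that of all tested genes -0.21, with 49 of 53 below it. The median by type was -0.71 for H1, -0.84 for H2A, -0.69 for H2B, -1.03 for H3 and -0.95 for H4. The lowest value was that of H4c3, at -1.52 with a standard error of 0.94 and an unadjusted p of 0.108 in limma. H4c12 followed with -1.33 and a standard error of 0.93, then H2bc27 with -1.30 and H4c11 with -1.29. At the other end stood H2bc21 with -0.16 and a standard error of 0.75, H4c18 with -0.29 and a standard error of 0.94, and H2bc18 with -0.35. Under scaling H2bc21 changed sign, to 0.07, and under quantile normalization so did H4c18, to 0.37, and H2bc18, to 0.35.

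**Figure D3:**
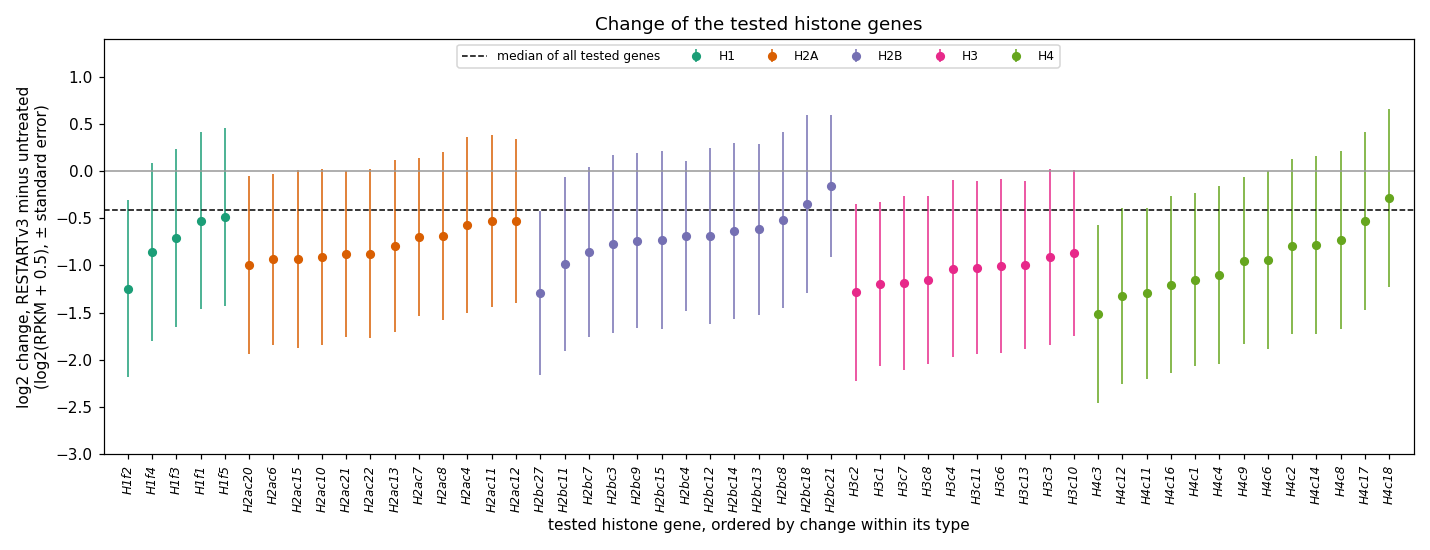
Log2 change of the 53 tested histone genes, RESTARTv3 minus untreated, on log2(RPKM + 0.5), with bars of 1 standard error from limma, ordered by change within each type. The dashed line is the median of all tested genes at -0.41, and 50 of the 53 points lie below it, with bars that mostly reach past it.

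Both RESTARTv3 values lay below both untreated values for 34 of the 53 tested members, and this held for 34.9% of all tested genes. After scaling it held for 35 of 53 members and 28.1% of all tested genes. The reverse, both RESTARTv3 values above both untreated values, held for 0 members and 0.768% of all tested genes, and after scaling for 0 members and 8.21% of all tested genes. By type, both RESTARTv3 values were the lower ones in 3 of 5 tested H1 genes, 8 of 12 H2A genes, 8 of 13 H2B genes, 7 of 10 H3 genes and 8 of 13 H4 genes.

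RESTARTv3 replicate 2 and untreated A stood out in these values. Replicate 2 was the lowest of the 4 libraries for 58 of 58 members and for 64.9% of all tested genes. Its RPKM was 0.424 of that of replicate 1 at the median over members (range 0.167 to 0.570), against 0.481 over all tested genes. After scaling, untreated A was the highest library for 54 of 58 members and for 56.2% of all tested genes. The 4 exceptions were H1f5, H2ac22, H2bc18 and H2bc21. The scaled level in untreated A was 1.71 times that in untreated B at the median over members, against 1.5 times over all tested genes. By type this ratio was 1.32 for H1, 1.52 for H2A, 1.45 for H2B, 2.26 for H3 and 2.32 for H4, and it ran from 0.552 for H2bc21 to 3.66 for H4c3. RESTARTv3 replicates 1 and 2 were 0.943 and 0.831 of untreated B at the median over members.

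**Figure D4:**
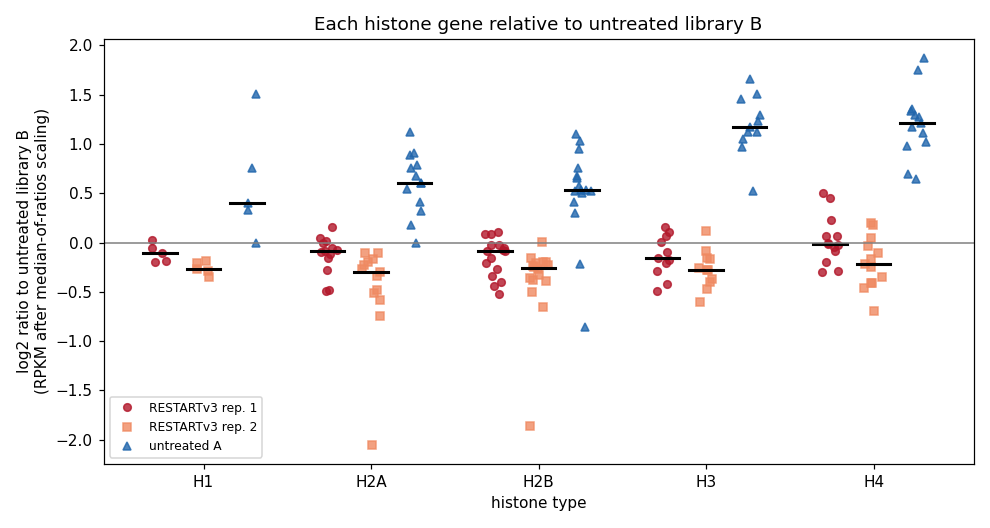
Log2 ratio of the scaled RPKM of each histone gene to its value in untreated B, for RESTARTv3 replicates 1 and 2 and untreated A, by histone type, with the median of each library as a bar. The points of untreated A lie highest, most of all for H3 and H4, and those of the RESTARTv3 libraries lie near or just below 0, with the testis genes H2ac1 and H2bc1 far down in replicate 2 on 1 read each.

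Without untreated A, the members' median log2 change after scaling was -0.18, against -0.034 for all tested genes, and 44 of 53 members were below that median. The median was then -0.20 for H1, -0.17 for H2A, -0.17 for H2B, -0.18 for H3 and -0.11 for H4, so that H3 and H4 no longer had the lowest values. Without untreated B, 3 of 53 members were called by limma after scaling, namely H2bc27, H3c1 and H4c11, where 45.1% of all tested genes were called, 30.5% with a lower level. In limma voom without untreated B, 42 of 56 members were called, all lower, where 46.3% of all genes were called, 25.6% with a lower level. In these fits untreated A stands alone for its group, and its spread is taken to be that of the RESTARTv3 pair.

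No gene of the machinery that makes and destroys histone mRNA passed the test. Of 24 genes of histone mRNA transcription, 3' end processing and decay, 21 were listed and 10 tested. Limma called 0 of them in either direction, and their median log2 change was 0.06, against -0.41 over all tested genes. Slbp, which encodes the stem-loop binding protein, had 2.33 and 1.07 RPKM in RESTARTv3, and 0.485 and 2.42 RPKM in untreated A and B, lowest in untreated A, where histone levels were highest. The summed histone level was 1600 and 1509 times that of Slbp in RESTARTv3, against 10878 times in untreated A and 1623 times in untreated B. The size of this ratio depends on gene span, which was under 1000 bases in 53 of the histone genes. In reads, Slbp had 2075 and 815 in RESTARTv3, and 241 and 1722 in untreated A and B. The histone genes had 147751 and 55259 reads in RESTARTv3, and 115269 and 126109 reads in untreated A and B. Rnu7, the U7 small nuclear RNA, had 11 and 9 reads in RESTARTv3, against 44 and 25 reads in untreated libraries. Rnu7 thus rested on few reads, and its log2 change of -2.01 (standard error 0.82) had an unadjusted p of 0.0146 and an adjusted p of 0.998 in limma. Ncbp2, of the nuclear cap-binding complex, had 14.6 and 6.53 RPKM in RESTARTv3 and 4.90 and 15.4 RPKM in untreated libraries. Cstf2, a 3' end processing factor, had 6.08 and 2.67 RPKM in RESTARTv3 and 2.19 and 5.93 RPKM in untreated libraries. Both were lowest in untreated A. Upf1, a factor of RNA decay, instead had 2.63 and 1.16 RPKM in RESTARTv3, against 5.39 and 2.62 RPKM in untreated A and B. Sympk, the scaffold of the 3' end cleavage machinery, had 1.41 and 0.594 RPKM in RESTARTv3, and 2.95 and 1.36 RPKM in untreated libraries. Both were highest in untreated A. After scaling untreated A was the lowest library for 15 of the 21 listed genes and the highest for 6. It was then the highest for 56.2% of all tested genes, and the share with it lowest was not counted. The summed scaled level was 37.0 and 34.7 in RESTARTv3, and 46.9 and 39.4 in untreated A and B. Rnu7, with its few reads, gave 19.3 of this sum in untreated A and 5.40 in untreated B, against 1.93 and 3.75 in RESTARTv3.

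Genes of S phase and mitosis kept a similar proportion to the histone genes in 3 libraries and departed from them in untreated A. Of 20 such genes 16 were listed and 11 tested, and 0 were called by limma. Their median log2 change was 0.22, against -0.41 over all tested genes. Pcna, the clamp of the replication fork, had 8.81 and 3.66 RPKM in RESTARTv3, and 1.86 and 8.29 RPKM in untreated A and B. Rrm2, a subunit of ribonucleotide reductase, had 7.46 and 3.0 RPKM in RESTARTv3, and 2.28 and 6.87 RPKM in untreated libraries. Ccna2, the cyclin of S phase and G2, had 4.44 and 1.75 RPKM in RESTARTv3, and 0.790 and 4.21 RPKM in untreated libraries. All 3 were lowest in untreated A, as were 11 of the 16 listed genes by RPKM and 15 of 16 after scaling. After scaling untreated A was the highest library for 56.2% of all tested genes, and the share with it lowest was not counted. Mki67, Top2a, Ccnb1 and Cdk1 were not listed, so that their order is not known. The listed genes summed to 45.5 and 18.2 RPKM in RESTARTv3, and 14.2 and 41.2 RPKM in untreated A and B. The histone genes therefore summed to 82.0 and 88.3 times the S phase and mitosis genes in RESTARTv3, against 372 times in untreated A and 95.5 times in untreated B. The size of these ratios also depends on gene span, by which RPKM is divided.

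**Figure D5:**
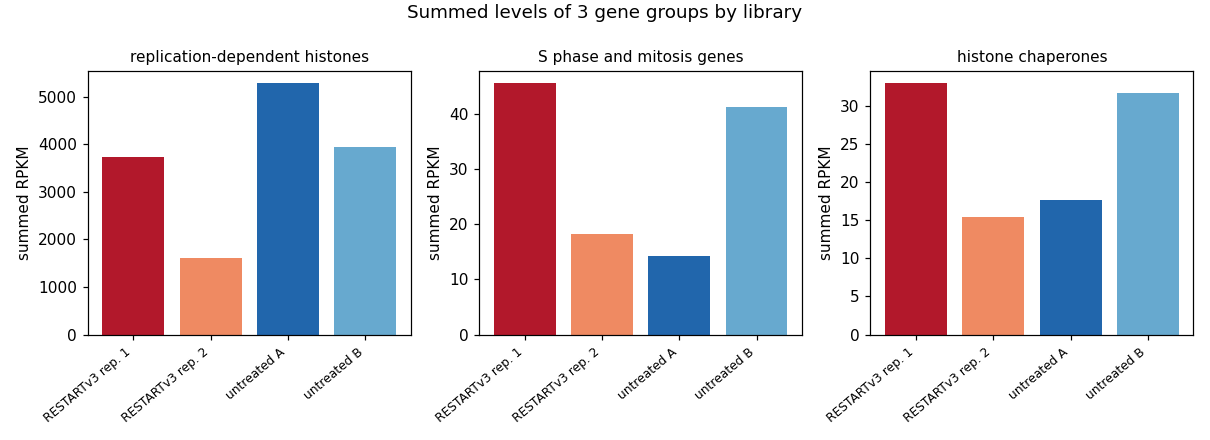
Summed RPKM of the 58 replication-dependent histone genes, the 16 listed S phase and mitosis genes and the 12 listed histone chaperones, with 1 bar per library and a separate axis for each group. Untreated A was the highest library for the histone genes at 5281 RPKM and the lowest for the S phase and mitosis genes at 14.2 RPKM.

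Histone chaperones, which carry histones to and from DNA, gave no call either. Of 16 genes 12 were listed and 8 tested, and 0 were called by limma. Their median log2 change was -0.09, against -0.41 over all tested genes. Ssrp1, a subunit of the FACT complex, had 9.94 and 4.5 RPKM in RESTARTv3 and 5.69 and 9.74 RPKM in untreated libraries. Supt16, the other FACT subunit, had 3.05 and 1.52 RPKM in RESTARTv3 and 0.838 and 3.21 RPKM in untreated libraries. In both genes the groups overlapped.

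Replication-independent histones gave no call, and their leading genes differed in how the libraries were ordered. Of 11 genes 10 were listed and 8 tested, and 0 were called by limma. The median log2 change was -0.05, against -0.41 over all tested genes. H3f3b, which encodes H3.3, had 13.6 and 7.44 RPKM in RESTARTv3, and 5.96 and 13.3 RPKM in untreated A and B. H2az1, which encodes H2A.Z, had 19.2 and 7.03 RPKM in RESTARTv3, and 5.44 and 16.9 RPKM in untreated libraries. Both were lowest in untreated A, opposite to the clustered genes. H3c3 was 4.65 and 3.64 times as high as H3f3b in RESTARTv3, against 17.3 times in untreated A and 4.51 times in untreated B. H2ac20 was 6.23 and 6.55 times as high as H2az1 in RESTARTv3, against 29.9 times in untreated A and 8.08 times in untreated B. The size of both ratios depends on gene span, by which RPKM is divided, so they are not ratios of reads. In reads, H3c3 was below H3f3b in every library, and H2ac20 was above H2az1 in every library. H2aj, an H2A variant with a polyadenylated mRNA, instead had 12.4 and 5.28 RPKM in RESTARTv3, against 24.7 and 12.7 RPKM in untreated libraries. H1f10, a linker histone variant, had 1.52 and 0.910 RPKM in RESTARTv3, against 5.53 and 1.96 RPKM in untreated libraries. H1f0, the linker histone of resting cells, had 20.7 and 12.5 RPKM in RESTARTv3, against 26.2 and 26.4 RPKM in untreated libraries. In these last 3 genes both RESTARTv3 values lay below both untreated values. This held for 4 of the 10 listed genes and for 34.9% of all tested genes. H2aj and H1f10 were highest in untreated A.

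The 6 members listed as giving polyadenylated mRNAs (H1f2, H2ac6, H2bc4, H2bc12, H2bc21 and H4c8) had a median log2 change of -0.71, with 0 of 6 called by limma. Over all tested genes the median was -0.41. They held 14.5% and 15.5% of the summed histone level in RESTARTv3, against 19.1% in untreated A and 14.4% in untreated B, a share that H1f2 and H4c8 set for the most part.

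Markers of cell types differed between libraries beside these values, and their part in the histone levels was not tested. Bone genes, 4 of 4 listed, summed to 154 and 100 RPKM in RESTARTv3, against 684 RPKM in untreated A and 192 RPKM in untreated B. Erythroid genes, 4 of 7 listed, summed to 446 and 224 RPKM in RESTARTv3, against 105 and 391 RPKM in untreated A and B. Untreated A had the highest bone and the lowest erythroid sum, but the markers within each list differed. The bone sum was set by Col1a1, with 108 and 70.7 RPKM in RESTARTv3, against 638 and 134 RPKM in untreated A and B. Ibsp of the same list was lowest in untreated A, with 30.6 and 20.6 RPKM in RESTARTv3, and 11.7 and 38.3 RPKM in untreated A and B. The erythroid sum was set by Hbb-bs, with 367 and 180 RPKM in RESTARTv3, against 75.9 and 318 RPKM in untreated libraries. Alas2 of that list did not share this order, with 5.02 and 2.03 RPKM in RESTARTv3, and 4.51 and 5.59 RPKM in untreated libraries. Supporting cell genes, 5 of 6 listed, summed to 61.6 and 29.5 RPKM in RESTARTv3, and 75.5 and 74.7 RPKM in untreated libraries. Gjb2 made up most of this sum, and the markers differed. Gjb6 had 7.52 and 15.6 RPKM in untreated A and B, and Otog had 6.47 and 1.38 RPKM. After scaling untreated A was the highest library for 3 of the 5 and the lowest for 2. Hair cell genes, 7 of 7 listed, summed to 2.59 and 1.29 RPKM in RESTARTv3, and 3.25 and 3.71 RPKM in untreated libraries, with Pvalb as the largest part. No listed marker was at 0, but all 21230 listed genes had reads in every library. The presence of a listed marker therefore says nothing about the cell types in a library. Granulocyte precursor genes, 5 of 5 listed, stria vascularis genes, 4 of 4 listed, ganglion and glia genes, 4 of 4 listed, and B cell precursor genes, 2 of 6 listed, summed to between 0.574 and 91.8 RPKM in each library.

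The ratio of the untreated libraries also differed with gene length and coding class, which are mixed here. Among tested genes under 1000 bases, scaled levels in untreated A were 1.92 times those in untreated B at the median for the 50 histone genes, 1.61 times for 40 other protein-coding genes and 2.44 times for 800 genes that do not code for protein. For 3970 tested genes of 1000 bases or more the median was 1.35 times. The 800 noncoding genes were also high in RESTARTv3 replicate 2, at 2.22 times untreated B, against 0.833 times for the 50 histone genes. Untreated A was the highest library for 94% of these histone genes and 67.5% of the 40 other protein-coding genes. For the 800 noncoding genes this share was 44%, and for the 3970 longer genes 58.1%. The part of length in the histone values of untreated A was not tested.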

How the data were processed

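RNA of cochlear tissue was sequenced in 2 RESTARTv3 and 2 untreated libraries. The authors depleted ribosomal RNA, made stranded libraries with molecular identifiers and, per the submitters' processing notes, used cutadapt 4.2, UMI-tools 1.0.0, STAR 2.7.10b, SAMtools 1.14 and HTSeq 1.14 with GRCm39. Secondary alignments were removed, and whether a read that fits several copies of a gene was then counted at its primary alignment is not given in the sources used here. The authors deposited RPKM values only. They state that genes with a log2 ratio of replicates over 1 were removed, but in the table the log2 ratio of recovered reads ran from -3 to 3 in both groups and was over 1 in size for 78.6% of genes in the RESTARTv3 pair and 53.3% in the untreated pair, so that the stated limit is not the one the values show. Both untreated columns have the same name and were called untreated A and B, letters with no order.

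RPKM multiplied by library total and annotated gene length gave whole reads within 0.001 for 11568 of 21230 listed genes. For 3322 genes the smallest length that gave whole reads in all libraries was used instead. For 6340 it was a multiple of such a length near the annotated one. For these genes the choice of length fixed the whole reads, so their counts can be off by a whole factor. Ratios between libraries are not affected. Duplicates had been removed, so that errors from counting cover a part of the true error. The test was limma 3.58.1 in R 4.3.3 (trend, 2-sided, Benjamini-Hochberg adjusted over all genes that averaged 1 RPKM or more) on log2(RPKM + 0.5), without covariates. Summed levels and shares were given per library without a test. Reads were also tested with limma voom, for genes that averaged 10 reads or more. The fits were also run on simulated data in which all libraries shared a common profile, apart from the genes set to change. Untreated A had a make-up of its own, so the simulation does not show how the fits behave on these libraries. Alternatives changed the pseudocount, filter, scaling, variance prior and unit, and left out each library.

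The 58 members and the gene lists were chosen with earlier results of these data known. The members named with their values are the 5 with the highest mean RPKM of each type, the 4 highest and 4 lowest in log2 change among members with a mean RPKM of at least 1, every member called and every member with both RESTARTv3 values above both untreated values. Of each list up to 4 genes with the highest mean RPKM and 3 with the smallest p could be named, with Slbp and Rnu7 always. Other members were named after their values were seen, for low counts, overlaps, neighbouring pairs or calls in an alternative.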

Additional observations from a re-analysis of the deposited data

How the results depend on the processing

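No paired analysis was possible because the untreated columns carry no replicate number. With no filter on low values 12 genes of the table, none of them a histone member, passed an adjusted p of 0.05 in limma, against 0 with the filter. Scaling turned the log2 change of H2bc21 to 0.070. Quantile normalization turned H1f1 to 0.079, H1f5 to 0.19, H2ac4 to 0.014, H2bc18 to 0.35, H2bc21 to 0.22, H2bc8 to 0.11 and H4c18 to 0.37, and voom turned H2bc21 to 0.081 and H4c18 to 0.017. Without H1f2 the difference in the share of H1, RESTARTv3 minus untreated, was 1.5 percentage points, against -0.74 with it. The causes were not tested.

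With each library left out in turn, over the deposited, scaled and voom values, the number of histone members called ran from 0 to 42 and that of all genes from 0 to 8539, the highest without untreated B in voom. The members' median log2 change ran from -1.49 to -0.17. The log2 ratio of summed RPKM ran from -1.53 to -0.38 for H1, -1.51 to -0.22 for H2A, -1.24 to -0.043 for H2B, -1.74 to -0.56 for H3 and -1.60 to -0.37 for H4, lowest without RESTARTv3 replicate 1. The log2 change changed sign in some of these fits for 11 named members: H1f1 (-1.14 to 0.089), H1f5 (-1.14 to 0.18), H2ac4 (-1.22 to 0.080), H2bc18 (-0.96 to 0.26), H2bc21 (-0.72 to 0.54), H2bc8 (-1.08 to 0.055), H3c3 (-1.52 to 0.019), H3c6 (-1.58 to 0.091), H4c14 (-1.34 to 0.013), H4c18 (-0.95 to 0.37) and H4c8 (-1.27 to 0.20). With 2 libraries a group and the spread seen here, small differences could not be detected.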

Other observations

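A few histone genes and a histone pseudogene outside the lists described had few reads. H1f6, a linker histone known from the testis, had 14 and 8 reads in RESTARTv3, and 13 and 13 reads in untreated A and B. H3f4 had 18 and 10 reads in RESTARTv3, and 12 and 14 reads in untreated libraries. H3f3c had 8 and 5 reads in RESTARTv3, and 2 and 12 reads in untreated libraries. The pseudogene H2bu1-ps had 212 and 89 reads in RESTARTv3, and 162 and 212 reads in untreated libraries, a level of 1.29 and 0.629 RPKM in RESTARTv3, against 1.76 and 1.61 RPKM in untreated libraries.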
